A study of Mus musculus with 28 samples.

Results

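The genes described here are the nuclear-encoded subunits of the respiratory chain and of ATP synthase in mouse kidney cells after ischemic acute kidney injury. They were taken by symbol among protein-coding genes (Nduf followed by a, b, c, s or v and a digit; Sdha to Sdhd; symbols starting Uqcr; Cox followed by 4 to 8; symbols starting Atp5), which gave 85 genes of 53392 in the files, 21832 of them protein coding. By complex these were 37 genes of complex I, 4 of complex II, 8 of complex III, 18 of complex IV and 18 of complex V. The rule goes by symbol, so an associated protein such as Atp5s, a coupling factor of ATP synthase, is in the set. Complexes were assigned by symbol too. Ndufa4, now placed in complex IV, and its relative Ndufa4l2 are therefore under complex I in every count, median and sum by complex.

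The study asked what a mimic of miR-486-5p, a microRNA, and exosomes, small membrane vesicles released by cells, do to the transcriptome of injured kidney. All animals were FVB male mice; ages and alleles are not given in the labels. The groups with a file per library were injured mice treated with exosomes (3 libraries per cell type), injured mice treated with the miR-486-5p mimic (2 per cell type) and injured mice treated with a scrambled miRNA (3 per cell type), so all of these mice had the injury and none was untreated. Each group was sampled as proximal tubular cells, collected by microdissection, and as endothelial cells, collected with CD31+ microbeads. Untreated injured mice and sham mice without injury (3 libraries per cell type each) entered only through the authors' deposited comparison tables, and their labels mark them as re-analysed from an earlier submission. The labels describe 3 mice behind each group but only 2 for the mimic, and p-values below measure the spread between these few samples.

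The chain sits in the inner mitochondrial membrane. Complex I (NADH dehydrogenase) and complex II (succinate dehydrogenase, also an enzyme of the TCA cycle) pass electrons to ubiquinone, complex III hands them to cytochrome c, and complex IV (cytochrome c oxidase) passes them to oxygen. The proton gradient made on the way drives complex V, ATP synthase. Proximal tubule cells are rich in mitochondria and depend on oxidative phosphorylation to power sodium transport, which is why this segment is known as sensitive to ischemia. Most subunits are encoded in the nucleus and imported, while a small core set is encoded by mitochondrial DNA, and complex II is the only one with no mitochondrially encoded subunit.

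The 16 libraries held 8273783 to 25326882 assigned reads. The tubular libraries carried their label: proximal tubule markers summed to 29673 to 40733 TPM (a length-scaled abundance) with exosomes and 30571 to 43381 TPM with the mimic, against 13683 to 20906 TPM with scrambled miRNA. Tubule injury markers (Havcr1, Lcn2, Krt20 and 7 others) summed to 111 to 262 TPM with exosomes and 76.6 to 149 TPM with the mimic, against 373 to 2037 TPM with scrambled miRNA. The marker sums of scrambled-miRNA tubules thus did not overlap those of either treated group, but some single markers did. Kap alone, at a median of 26054 TPM over the tubular libraries, dominated the proximal tubule sum. Slc34a1 had 5020, 2763 and 940 CPM (read counts scaled to library size) with scrambled miRNA, against 3427, 4287 and 3663 CPM with exosomes. Among injury genes, Krt8 had 122, 297 and 413 CPM with scrambled miRNA, against 120, 134 and 169 CPM with exosomes. The libraries labelled endothelial held much tubular RNA. The 10 endothelial markers summed to 313 to 371 TPM with exosomes, 434 to 615 TPM with the mimic and 361 to 603 TPM with scrambled miRNA. Thick ascending limb markers in them summed to 5891 to 9656 TPM, 12578 to 13965 TPM and 3663 to 8344 TPM in the same order. Umod alone, a thick ascending limb gene, ran at a median of 6736 TPM there. Each endothelial value below is therefore that of a CD31+ bead fraction with tubular RNA in it, and the part of that RNA in the results was not tested. In bulk RNA, fewer cells of a type and less RNA per cell cannot be told apart.

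As a share of all assigned reads, the 85 genes took more in tubules given exosomes than in the other tubular groups. Their share was 3.10, 2.96 and 2.72% with exosomes and 2.29 and 2.44% with the mimic, against 2.70, 2.19 and 2.33% with scrambled miRNA. The lowest exosome library thus lay just above the highest scrambled-miRNA library, and the mimic libraries fell within the scrambled-miRNA range. In the endothelial fraction the share was 2.22, 1.74 and 2.12% with exosomes and 2.41 and 2.49% with the mimic, against 1.498, 1.62 and 1.64% with scrambled miRNA, with no overlap between either treated group and the scrambled-miRNA group. The 13 mitochondrially encoded subunits, which are read from the other genome, took 9.29, 10.4 and 13.7% of reads in exosome tubules and 8.01 and 4.99% in mimic tubules, against 4.32, 9.22 and 7.21% in scrambled-miRNA tubules.

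**Figure D1:**
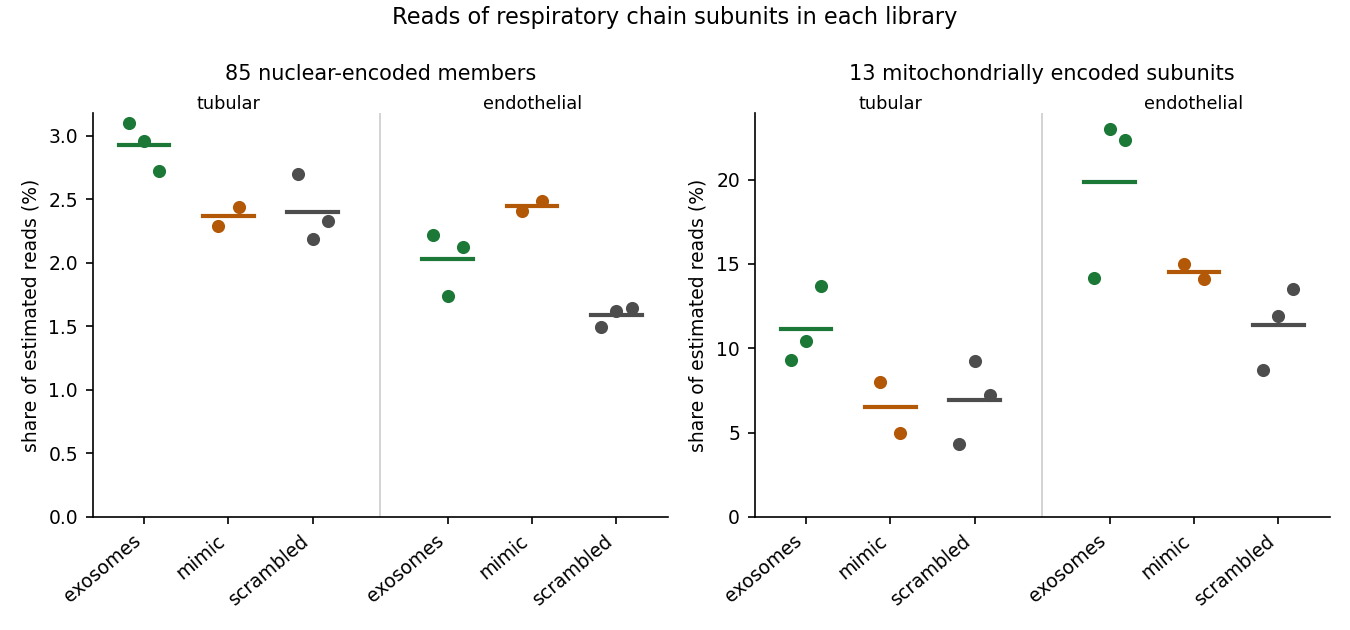
Share of assigned reads (percent) taken by the 85 nuclear-encoded genes and by the 13 mitochondrially encoded subunits, 1 point per library, by cell type and treatment. The exosome tubules sit at 2.72 to 3.10% for the nuclear-encoded genes, above the scrambled-miRNA tubules at 2.19 to 2.70%.

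Levels can be compared between genes only per unit of length, here as RPKM, the reads per kilobase of transcript scaled to the size of the library, computed from the deposited estimated counts. The highest member was Atp5b, the catalytic beta subunit of ATP synthase, with a mean of 3352 RPKM over the tubular and 2525 RPKM over the endothelial libraries. In tubules it was followed by Ndufa4 at 1296, Cox4i1 at 1193, Atp5g3 (a gene for the membrane ring subunit c) at 1175 and Atp5a1 (the alpha subunit) at 1138 RPKM. Sdha led complex II at 526 RPKM in tubules and 401 RPKM in the endothelial fraction, and Uqcrq, a small ubiquinone-binding subunit, led complex III at 850 and 474 RPKM in the same order. At the other end, Ndufa4l2 was at 0.531 RPKM in tubules, Cox4i2 at 0.107 RPKM and the muscle isoform Cox6a2 at 0.304 RPKM, while Sdhb at 340 RPKM and Uqcrfs1 at 301 RPKM were the lowest of complexes II and III. Deposited TPM ranked some genes otherwise, because transcripts of effective length under 50 bases carried 93.6% of the TPM of Cox7b, 90.5% of Atp5l and 83.0% of Sdha.

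Summed over each complex on that length-scaled measure, complex I came to 12629 ± 712 RPKM in exosome tubules and 8767 ± 795 RPKM in mimic tubules, against 9273 ± 1011 RPKM in scrambled-miRNA tubules (SD, with n = 3, 2 and 3). That sum includes Ndufa4, placed there by its symbol. Complex V came to 12508 ± 772 RPKM in exosome tubules and 10363 ± 403 RPKM in mimic tubules, against 10672 ± 1414 RPKM in scrambled-miRNA tubules. Complex II, the smallest sum, was 1783 ± 114 RPKM with exosomes and 1653 ± 10.9 RPKM with the mimic, against 1655 ± 237 RPKM with scrambled miRNA, within the spread of the scrambled-miRNA group.

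In tubules of injured mice given exosomes, subunit genes of complexes I, III, IV and V rose relative to the scrambled miRNA, and none fell. Of 80 members with enough reads to test, 29 rose and 0 fell at an adjusted p under 0.05 in edgeR's quasi-likelihood test with Benjamini-Hochberg adjustment over all 14913 genes tested, where 2.72% of all genes rose and 2.41% fell. DESeq2 called 45 members, and edgeR on these 2 groups alone 18. Here and below, shares of all genes called belong to the main edgeR fit. Counts from DESeq2, from other settings or at an unadjusted p have no such share beside them. They therefore do not show how far the members differ from all genes. The median log2 fold change of the members was 0.54, beside -0.02 over all genes tested, and 77 of the 80 were positive. By complex, 14 of 37 genes rose in complex I, 3 of 8 in complex III, 5 of 13 in complex IV and 7 of 18 in complex V, while none of the 4 in complex II passed. The 14 include Ndufa4, which goes under complex I here by its symbol only.

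Ndufb8, an accessory subunit of the membrane arm of complex I whose gene lies at chr19:44548572-44555440 (GRCm38, minus strand), had 574, 622 and 589 CPM (read counts scaled to library size, here with the TMM method of edgeR) in exosome tubules, against 295, 276 and 332 CPM in scrambled-miRNA tubules. Every exosome library was far above every scrambled-miRNA library, and the log2 fold change was 0.98 ± 0.159 (SE, adjusted p = 0.0243 in edgeR). Ndufa7, an accessory subunit of the arm that reaches into the matrix (chr17:33824572-33838317), had 139, 147 and 136 CPM with exosomes, against 75.4, 65.3 and 85.6 CPM with scrambled miRNA (log2 0.90 ± 0.141, adjusted p = 0.0243 in edgeR). These and the next 3 had the smallest adjusted p values of the set.

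Cox7c, a small membrane subunit of complex IV (chr13:86044816-86046904), had 250, 277 and 260 CPM in exosome tubules, against 132, 127 and 149 CPM in scrambled-miRNA tubules (log2 0.95 ± 0.158, adjusted p = 0.0252 in edgeR). Cox7b, another small subunit of the same complex (chrX:106015700-106022450), had 422, 454 and 456 CPM with exosomes, against 212, 214 and 268 CPM with scrambled miRNA (log2 0.94 ± 0.162, adjusted p = 0.0261 in edgeR). Ndufa4, named for complex I and now placed in complex IV (chr6:11900292-11907497), had 806, 995 and 896 CPM with exosomes, against 408, 416 and 486 CPM with scrambled miRNA (log2 1.04 ± 0.182, adjusted p = 0.0274 in edgeR). In none of these 5 genes did the groups overlap. They were picked by smallest adjusted p in this same comparison, so the lack of overlap adds no support. Of all genes tested, 15.9% had every exosome library above every scrambled-miRNA library and 14.5% below.

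**Figure D2:**
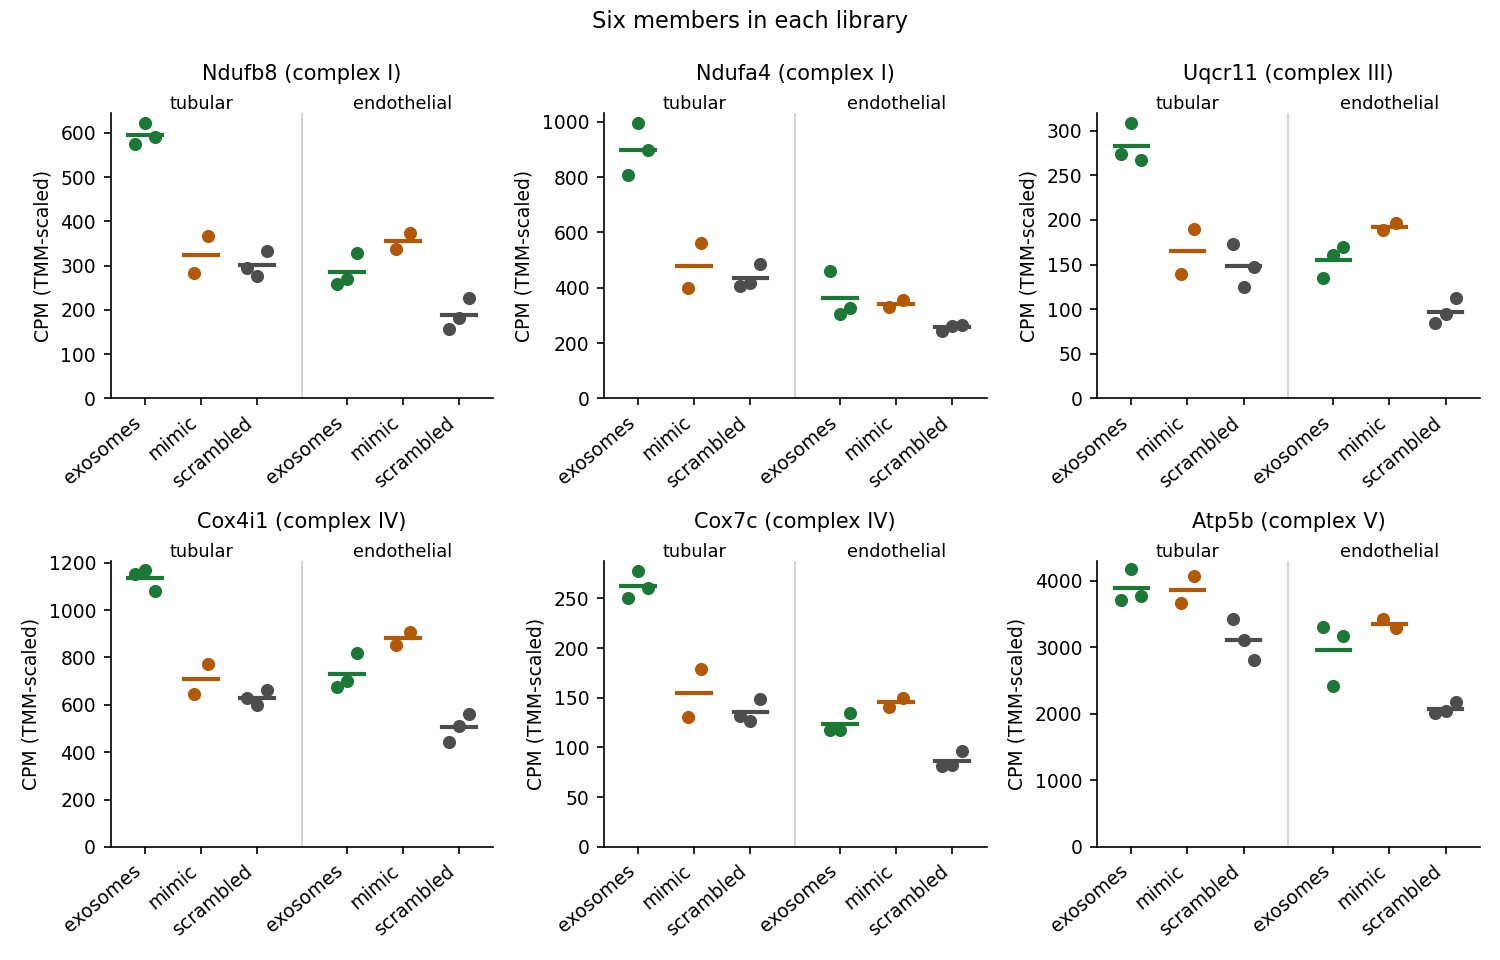
TMM-scaled CPM, scaled within each cell type, of 6 members from complexes I, III, IV and V in each of the 16 libraries, by cell type and treatment. Bars are group means. Among the tubular groups, Ndufb8, Ndufa4, Uqcr11, Cox4i1 and Cox7c are highest with exosomes, whereas Atp5b differs less.

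The other genes that rose in exosome tubules included Cox4i1, the ubiquitous form of the regulatory subunit 4 of complex IV (log2 0.85 ± 0.151), and Atp5l, subunit g in the membrane part of ATP synthase (0.83 ± 0.148). In complex III, Uqcr11, its smallest subunit, had 273, 309 and 268 CPM with exosomes, against 173, 125 and 147 CPM with scrambled miRNA (log2 0.93 ± 0.178, adjusted p = 0.0314 in edgeR). Uqcrh, the hinge protein that docks cytochrome c1, rose by a log2 fold of 0.75. The largest fold was that of Atp5g2, a minor gene for subunit c, at 5.08, 5.07 and 6.67 CPM with exosomes, against 1.11, 0.844 and 2.45 CPM with scrambled miRNA (log2 1.95 ± 0.405, adjusted p = 0.0369 in edgeR).

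The catalytic and redox-carrying subunits mostly did not pass. Of the iron-sulphur and flavin subunits at the core of complex I, Ndufs8 (log2 0.64 ± 0.157, adjusted p = 0.0496 in edgeR) and Ndufv2 (0.71 ± 0.150, adjusted p = 0.0388) rose. Ndufs1 at 0.25, Ndufs3 at 0.35, Ndufs7 at 0.15 and Ndufv1 at 0.22 did not pass. In complex II, the flavoprotein Sdha had 633, 692 and 665 CPM with exosomes, against 794, 680 and 476 CPM with scrambled miRNA, with overlapping groups (log2 0.03, adjusted p = 0.945 in edgeR). The membrane anchor Sdhd, at 551, 603 and 548 CPM with exosomes against 363, 387 and 428 CPM with scrambled miRNA, did not overlap between the groups but missed the threshold (log2 0.53, adjusted p = 0.0686 in edgeR).

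In complex III, the core protein Uqcrc2 was at a log2 fold of 0.58 (adjusted p = 0.0505 in edgeR), the Rieske iron-sulphur protein Uqcrfs1 at 0.53 and the core protein Uqcrc1 at 0.21, none past the threshold. Of the F1 part of ATP synthase, the gamma subunit Atp5c1 rose (692, 742 and 698 CPM with exosomes, against 455, 441 and 460 CPM with scrambled miRNA; log2 0.65 ± 0.144, adjusted p = 0.0413 in edgeR). The alpha subunit Atp5a1 stood at 1978, 2120 and 1975 CPM with exosomes, against 2259, 1948 and 1591 CPM with scrambled miRNA (log2 0.07, adjusted p = 0.855 in edgeR). The beta subunit Atp5b was at a log2 fold of 0.32 (adjusted p = 0.289). The complex IV subunits Cox5a at 0.26, Cox5b at 0.40 and Cox8a at 0.12 did not pass either.

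Members with short transcripts filled the list of those that rose: the 29 had a median transcript length of 559 bases and the other 51 tested members 763 bases, against 2515 bases over 18070 protein-coding genes with a read. With a length-dependent offset per library, 7 members rose and the median was 0.31. The part of transcript length in the result was not tested further. The count also hung on single libraries. It was 0 without any 1 of the exosome libraries or without scrambled-miRNA replicate 2, 13 without mimic replicate 1 and 15 without mimic replicate 2, while the median log2 fold stayed between 0.48 and 0.60. Every exosome library lay above every scrambled-miRNA library in 64 of the 80 members and below in 0, where 15.9% of all genes tested lay above and 14.5% below. Marker genes moved with the same groups: 3 of 10 proximal tubule markers rose and 6 of 10 injury markers fell in exosome tubules in edgeR. The part of the tubules' makeup in the result was not tested.

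**Figure D3:**
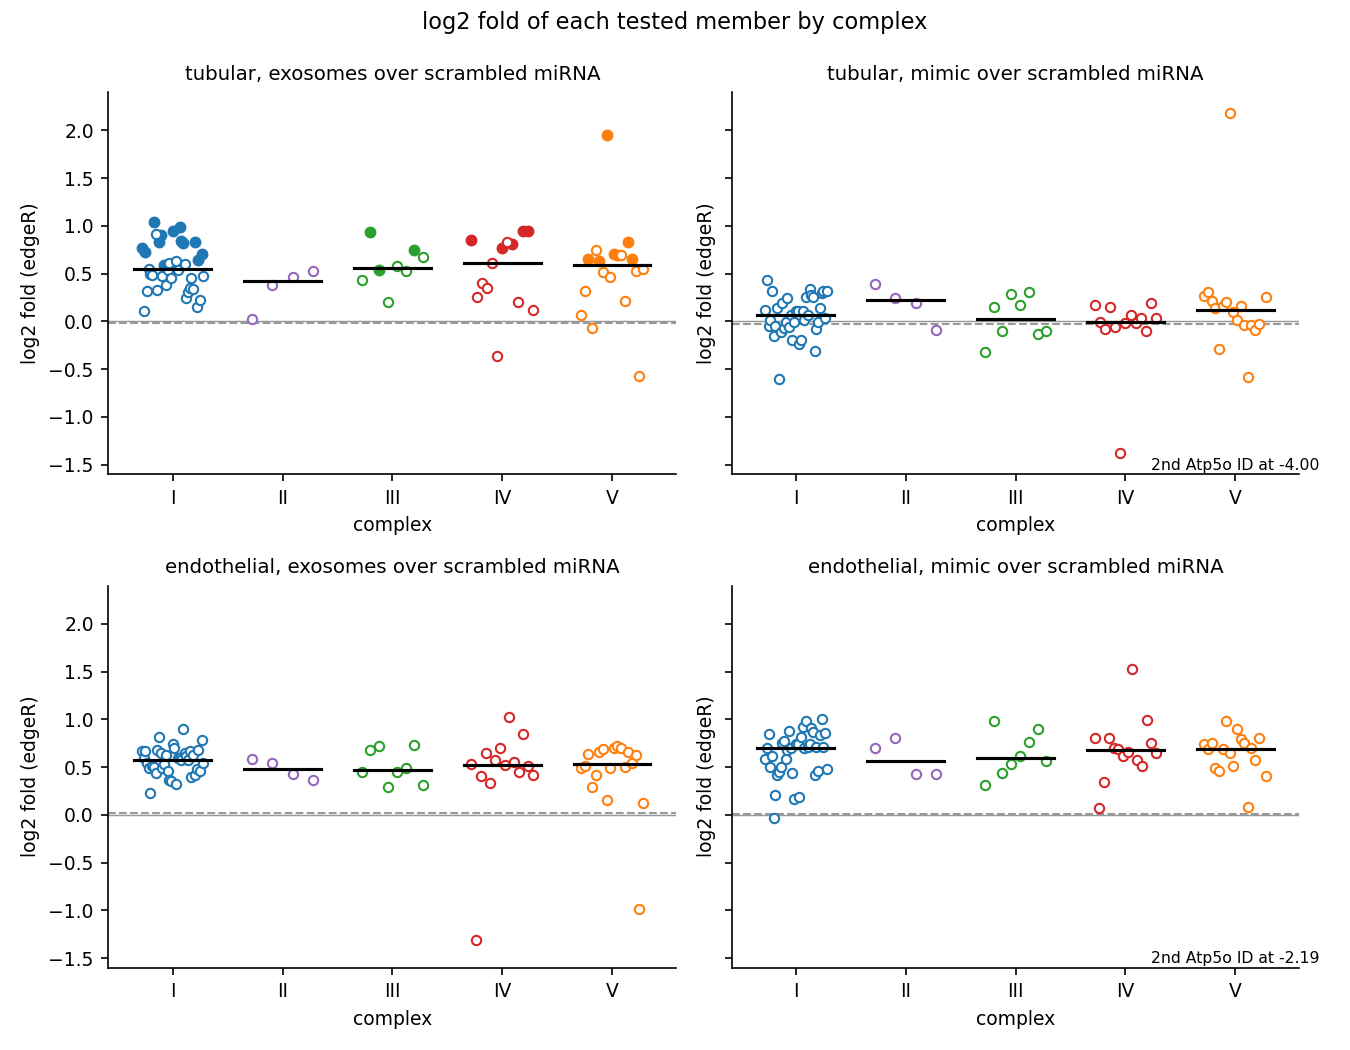
Log2 fold change of each member by complex in the comparisons fitted here; filled points have an adjusted p under 0.05 in edgeR, open points do not, black bars are medians per complex and the dashed line is the median of all genes tested. In exosome against scrambled-miRNA tubules 29 of 80 points are filled, all above 0, and the complex II points are all open.

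Promoter windows were read for members that rose in exosome tubules, to show sequence upstream of genes that moved together. RefSeq windows (GRCm38.p6, 250 bases before to 50 bases after the annotated start, first listed window per gene) were found for 68 of the 85 members. Capitals mark, on either strand, the words GCATGCG (core of the NRF1 site), CCGGAAG (ETS family, bound by GABP), AAGGTCA (bound by the estrogen-related receptors) and AAGATGG (YY1), all factors known for driving nuclear respiratory genes; each line reads 5′ to 3′ on the gene's strand.
Ndufb8 (chr19:44555393-44555692, minus strand): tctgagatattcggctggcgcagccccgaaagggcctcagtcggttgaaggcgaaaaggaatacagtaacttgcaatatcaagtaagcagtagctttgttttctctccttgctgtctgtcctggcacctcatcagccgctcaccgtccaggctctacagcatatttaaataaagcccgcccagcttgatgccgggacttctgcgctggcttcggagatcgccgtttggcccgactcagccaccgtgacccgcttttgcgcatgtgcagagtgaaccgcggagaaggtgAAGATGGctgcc
Ndufa4 (chr6:11907401-11907700, minus strand): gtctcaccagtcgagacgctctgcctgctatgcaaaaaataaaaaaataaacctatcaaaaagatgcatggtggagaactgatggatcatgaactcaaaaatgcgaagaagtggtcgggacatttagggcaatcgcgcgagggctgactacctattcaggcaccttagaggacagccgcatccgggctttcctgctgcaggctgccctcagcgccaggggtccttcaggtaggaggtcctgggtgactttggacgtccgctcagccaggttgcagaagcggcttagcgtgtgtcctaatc
Uqcr11 (chr10:80406772-80407071, minus strand): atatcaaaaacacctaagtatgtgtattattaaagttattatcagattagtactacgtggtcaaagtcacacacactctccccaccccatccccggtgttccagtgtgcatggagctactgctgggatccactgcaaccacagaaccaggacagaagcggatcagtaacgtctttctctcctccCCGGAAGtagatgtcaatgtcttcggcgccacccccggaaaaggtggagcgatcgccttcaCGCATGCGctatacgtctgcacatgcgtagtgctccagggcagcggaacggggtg
Atp5l (chr9:44920693-44920992, minus strand): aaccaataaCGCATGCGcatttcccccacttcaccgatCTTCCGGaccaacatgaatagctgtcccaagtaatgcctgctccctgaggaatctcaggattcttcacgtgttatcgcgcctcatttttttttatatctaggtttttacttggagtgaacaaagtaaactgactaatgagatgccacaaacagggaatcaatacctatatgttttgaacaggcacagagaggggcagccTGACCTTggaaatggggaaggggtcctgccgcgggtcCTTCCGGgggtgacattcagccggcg
Atp5g2 (chr15:102670998-102671297, minus strand): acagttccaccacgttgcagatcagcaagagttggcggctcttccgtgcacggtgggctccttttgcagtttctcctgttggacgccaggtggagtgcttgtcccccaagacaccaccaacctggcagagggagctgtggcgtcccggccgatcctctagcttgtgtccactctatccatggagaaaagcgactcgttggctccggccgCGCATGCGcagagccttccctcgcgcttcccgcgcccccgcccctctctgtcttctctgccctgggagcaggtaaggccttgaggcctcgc
The Ndufb8 window holds the YY1 word near its end, those of Uqcr11 and Atp5l hold both the NRF1 and ETS words. That of Atp5l also holds the receptor word, Atp5g2 holds the NRF1 word and Ndufa4 holds none. The palindrome CGCATGCG contains the NRF1 word once on each strand. Over all matched members, the NRF1 word was in 10 of 68 windows (14.7%), against 3.64% of all 27025 windows, and the ETS word in 15 (22.1%), against 9.12%. The receptor word was in 8 (11.8%), against 4.66%, and the YY1 word in 10 (14.7%), against 6.48%. Of the 24 matched members that rose in exosome tubules, 5 held the NRF1 word, 5 the ETS word, 2 the receptor word and 6 the YY1 word. The windows printed are examples, and of these only Ndufb8 and Ndufa4 are among the 5 members of smallest adjusted p. The NRF1 word is more frequent among the windows printed than among the 24. A match is a description of letters only.

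In tubules given the mimic, no member passed the test against scrambled miRNA. edgeR called 0 of 80 members (2 positive and 2 negative at an unadjusted p under 0.05; DESeq2 called 1), where 0.0134% of all genes were called higher and 0.00671% lower. The members' median log2 fold was 0.05 beside -0.03 over all genes. Ndufb8 had 282 and 367 CPM with the mimic, within reach of the 276 to 332 CPM with scrambled miRNA. Cox4i1 had 646 and 771 CPM with the mimic, against 629, 599 and 661 CPM with scrambled miRNA. The member nearest to passing was Atp5g2, at 6.43 and 6.73 CPM with the mimic, against 1.11, 0.844 and 2.45 CPM with scrambled miRNA (log2 2.18 ± 0.429, adjusted p = 0.109 in edgeR). Both mimic libraries lay above every scrambled-miRNA library in 11 members and below in 3, where 15.6% and 15.9% of all genes did so.

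Set directly against exosomes, the mimic tubules gave a median log2 fold of -0.53 over the members, beside -0.03 over all genes. edgeR called 0 of 80 members and 0% of all 14913 genes, with 49 members negative at an unadjusted p under 0.05, while DESeq2 called 31 members lower. Without scrambled-miRNA replicate 3, edgeR called 3. Both mimic libraries lay below every exosome library in 60 members and above in 4, where 20.6% and 19.9% of all genes did so. Ndufa7 had 67.9 and 75.5 CPM with the mimic, against 139, 147 and 136 CPM with exosomes (log2 -0.97 ± 0.160, adjusted p = 0.311 in edgeR), and the groups did not overlap. Atp5b, at 3662 and 4073 CPM with the mimic against 3715, 4184 and 3775 CPM with exosomes, overlapped.

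In the CD31+ fraction, most members had positive folds with either treatment, but whether any passed depended on the fit. In edgeR on all 8 libraries with the filter on low counts, none passed. With exosomes against scrambled miRNA the members' median log2 fold was 0.54, beside 0.02 over all genes, and 79 of 81 were positive. edgeR called 0 members and 0% of all 16316 genes, with 65 members positive and 1, Cox4i2, negative at an unadjusted p under 0.05, and DESeq2 called 17 higher. With no filter on low counts edgeR called 11. All exosome libraries lay above all scrambled-miRNA libraries in 68 members and below in 1, where 9.21% and 5.96% of all genes did so. Ndufc1, a small membrane accessory subunit of complex I, had 103, 75.3 and 89.1 CPM with exosomes, against 40.5, 52.2 and 50.7 CPM with scrambled miRNA (log2 0.90 ± 0.171, adjusted p = 0.186 in edgeR), with no overlap.

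With the mimic the members' median log2 fold in this fraction was 0.69, beside 0.01 over all genes. edgeR called 0 of 81 members and 0% of all genes. At an unadjusted p under 0.05 in edgeR 65 members were positive, and DESeq2 called 43 higher, both without a share over all genes beside them. The smallest adjusted p in edgeR was 0.0545. Without exosome replicate 1, 2 or 3, which enter only the estimate of the spread, edgeR called 44, 1 and 4 members in that order. On the mimic and scrambled-miRNA groups alone it called 47, and with no filter on low counts 33. Ndufs8, an iron-sulphur subunit of complex I, had 172 and 172 CPM with the mimic, against 71.0, 87.4 and 99.2 CPM with scrambled miRNA (log2 1.00 ± 0.186, adjusted p = 0.0545 in edgeR). Uqcr11 had 188 and 196 CPM with the mimic, against 84.2, 94.7 and 113 CPM with scrambled miRNA (log2 0.98 ± 0.184). In both genes the groups did not overlap, as in 73 members with both mimic libraries above and 0 below, where 23.4% and 21.8% of all genes did so.

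The largest fold with the mimic in this fraction was that of Cox7a1, the muscle and heart isoform of subunit 7a, at 19.2 and 19.1 CPM with the mimic, against 3.18, 8.65 and 8.16 CPM with scrambled miRNA (log2 1.52 ± 0.379, adjusted p = 0.0845 in edgeR). Tubular markers moved with these groups, and not all one way. Proximal tubule markers summed to 1617 to 15177 TPM with exosomes and 1811 to 2112 TPM with the mimic, against 4206 to 8788 TPM with scrambled miRNA. Distal and collecting duct markers summed to 301 to 623 TPM with exosomes and 721 to 749 TPM with the mimic, against 171 to 253 TPM with scrambled miRNA. Injury markers summed to 905 to 6222 TPM with exosomes and 961 to 1366 TPM with the mimic, against 9963 to 12875 TPM with scrambled miRNA. Their part in the members' values was not tested. Mimic against exosomes gave a median log2 fold of 0.12, and neither edgeR nor DESeq2 called any of the 81 members (1 at an unadjusted p under 0.05, Cox4i2). Both mimic libraries lay above all exosome libraries in 26 members and below in 3, where 10.2% and 10.1% of all genes did so.

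Whether a treatment acted differently in the 2 cell types was tested as a difference of effects over all 16 libraries. For exosomes the members' median difference, tubular less endothelial, was 0.02 on the log2 scale, beside -0.03 over all genes, and edgeR and DESeq2 called 0 of 81 (3 positive at an unadjusted p under 0.05). The sign of that median was not stable: it was -0.15 with the length offset, with 27 of 81 positive, -0.02 with no filter on low counts, and between -0.06 and 0.10 as single libraries were left out. It was negative without endothelial exosome replicate 2, endothelial scrambled-miRNA replicate 3 or tubular scrambled-miRNA replicate 2 or 3. For the mimic the median difference was -0.61, beside -0.07 over all genes, and 79 of 81 were negative. edgeR called 0 members and 0% of all 17143 genes, with 40 members negative at an unadjusted p under 0.05, and DESeq2 called 12. Without endothelial exosome replicate 1, edgeR called 4. Uqcrh showed the smallest adjusted p. It had 181 and 230 CPM in mimic tubules against 226, 203 and 247 CPM in scrambled-miRNA tubules. It had 268 and 291 CPM in the mimic endothelial fraction against 127, 162 and 162 CPM in its scrambled-miRNA group (difference -1.02 ± 0.257, adjusted p = 0.139 in edgeR).

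Across all treatments, tubular libraries held more of most members than the endothelial fraction. edgeR called 67 of 81 members higher and 2 lower in tubular libraries, where 29.9% of all 17143 genes were higher and 36.3% lower. The members' median log2 fold was 0.53, beside -0.06 over all genes. All 4 genes of complex II and all 8 of complex III were higher, with 34 of 37 in complex I, 8 of 14 in complex IV and 13 of 18 in complex V. The medians were 0.92 for complex II, 0.67 for complex III, 0.56 for complex V, 0.53 for complex I and 0.38 for complex IV. With a length-dependent offset the counts were 31 higher and 5 lower, and the median was 0.17.

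The membrane anchor Sdhc ran at 303 to 488 CPM over the 8 tubular libraries (median 384), against 194 to 286 CPM over the 8 endothelial libraries (median 247) (log2 0.91 ± 0.0882, adjusted p = 6.58e-07 in edgeR). The TMM-scaled CPM of members were scaled within each cell type, whereas this fold and p come from a joint scaling over all 16 libraries. The fold, and not the CPM, therefore compares the cell types. Sdhd (log2 0.96), the small complex III subunit Uqcr10 (1.09), Ndufb4 of complex I (1.12) and the iron-sulphur protein Sdhb (0.93) followed. Among those that did not pass were Atp5a1 at 0.28, Atp5g1 at 0.17, Cox8a at 0.18 and Cox7a2l at 0.03, the last known for joining complexes III and IV. The 13 mitochondrially encoded subunits went the other way, with 10 lower in tubular libraries.

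The 2 members lower in tubules were Ndufa4l2 and Cox4i2, both at low levels. Ndufa4l2, a hypoxia-inducible relative of Ndufa4 (chr10:127514967-127517154), was at 0.195 to 0.930 CPM in tubular libraries (median 0.288), against 1.99 to 7.41 CPM in the endothelial fraction (median 4.85), each scaled within its cell type (log2 -3.42 ± 0.384 on the joint scaling, adjusted p = 2.63e-06 in edgeR). Cox4i2, the oxygen-regulated form of subunit 4 (chr2:152754173-152765037), was at 0 to 0.368 CPM in tubular libraries, against 0.416 to 1.76 CPM in the endothelial fraction, with a fitted log2 fold of -4.39 that rests on few reads. Cox4i2 had too few reads for the tests within tubular libraries and entered this one through the endothelial libraries, where it is higher. Its call as lower in tubules is therefore not independent of the filter on low counts. Per length, the mean level of Cox4i2 was 0.107 RPKM in tubules and 1.56 RPKM in the endothelial fraction, against 1193 and 977 RPKM for Cox4i1. Ndufa4l2 was at 0.531 RPKM in tubules and 6.46 RPKM in the endothelial fraction, against 1296 and 673 RPKM for Ndufa4.

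**Figure D4:**
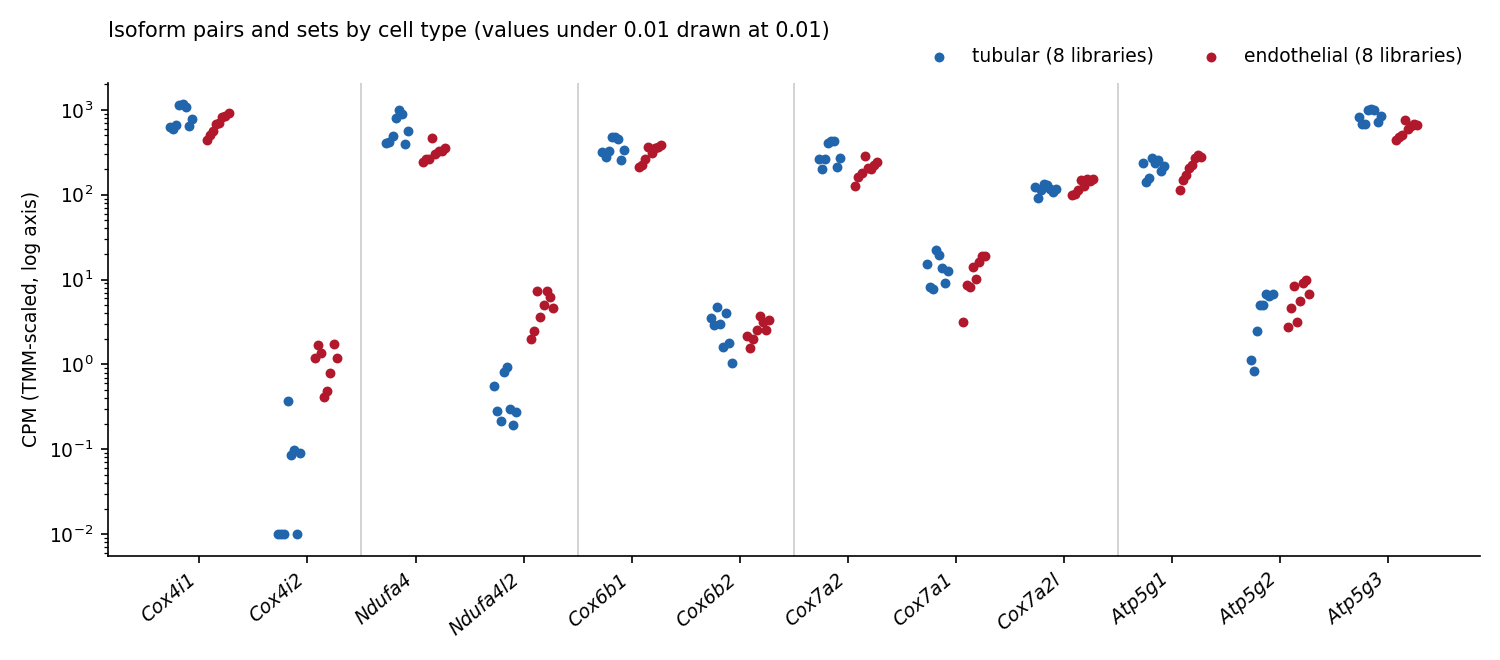
TMM-scaled CPM, on a log axis, of isoform sets in the 8 tubular and 8 endothelial libraries; values under 0.01 are drawn at 0.01. Ndufa4l2 and Cox4i2 lie higher in the endothelial fraction, at 1.99 to 7.41 and 0.416 to 1.76 CPM. CPM is not scaled to length, so a gene is not read against other genes. These values were also scaled within each cell type, so they compare cell types only roughly. The fitted folds in the text make that comparison.

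Other isoform sets were dominated by their broadly expressed form in both cell types, on the length-scaled measure. Cox7a2 had a mean of 659 RPKM in tubules and 433 RPKM in the endothelial fraction, against 34.4 and 31.0 RPKM for Cox7a1. Cox6b1 had 1011 and 853 RPKM, against 6.52 and 5.80 RPKM for Cox6b2, known from testis. Of the 3 genes that encode the identical mature subunit c, Atp5g3 had 1175 RPKM in tubules and 828 RPKM in the endothelial fraction, Atp5g1 337 and 336 RPKM, and Atp5g2 5.79 and 8.65 RPKM. Cox8b and Cox8c had no reads in any library, and Cox7b2 had none in tubules.

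The authors' deposited tables bring in sham and untreated injured mice. Except for untreated over sham, each sets libraries re-analysed from an earlier submission against newly made ones, so submission and treatment cannot be told apart in them. The tables also share libraries: every sham table uses the same sham mice and every untreated table the same untreated mice. Folds keep the direction of the authors' deposited tables, in which the group named before "over" is the numerator, so a negative fold of untreated over treated means lower in untreated mice. In the authors' deposited tables a fold divided by its SE does not give the listed p-value, as with shrunken folds, so fold sizes are not compared between tables.

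In the authors' deposited table of exosome-treated tubules over sham, 56 of 80 members were higher and 0 lower at an adjusted p under 0.05, where 6.24% of all genes were higher and 4.96% lower. The members' median log2 fold in the authors' deposited table was 0.75. By complex this authors' deposited table had 28 of 37 higher in complex I, 2 of 4 in complex II, 6 of 8 in complex III, 9 of 13 in complex IV and 11 of 18 in complex V. Uqcrb, a ubiquinone-binding protein of complex III, had a log2 fold of 0.99 (adjusted p = 3.50e-11), Ndufa3 of complex I 0.97 and Sdhd 0.87 in the authors' deposited table. Atp5a1 at -0.22, Sdha at -0.20 and Ndufs1 at -0.02 in the same authors' deposited table did not pass.

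Untreated over exosome-treated tubules gave, in the authors' deposited table, 61 of 81 members lower and 0 higher, where 13.3% of all genes were lower and 17.6% higher, with a members' median of -0.81. Ndufa3 at -1.20 (adjusted p = 1.61e-13) and Ndufa6 at -1.12 had the smallest adjusted p values of the members in that authors' deposited table, though not the largest folds. Untreated over mimic-treated tubules had 18 of 81 lower and 0 higher in the authors' deposited table, where 8.78% of all genes were lower, with a median of -0.31. Of the 18 in that authors' deposited table, 13 were in complex I, 3 in complex II and 2 in complex V. Untreated over scrambled-miRNA tubules had 17 of 81 lower and 0 higher in the authors' deposited table, where 6.75% of all genes were lower, with a median of -0.19. The scrambled-miRNA group, meant as the inert treatment, thus also lay above the untreated mice for some members in that authors' deposited table, among them Ndufa3 at -0.77 and Atp5j, coupling factor 6, at -0.82.

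The injury itself gave few calls. In the authors' deposited table of untreated injured over sham tubules, 3 of 81 members were lower and 0 higher, where 8.65% of all genes were lower, and the median was 0.02. The 3 in that authors' deposited table were Ndufs8 (log2 -0.68, adjusted p = 0.00407), Ndufv3 (-0.51) and Ndufs1 (-0.61), all of complex I. The authors' deposited table of mimic-treated tubules over sham had 0 of 81 called, where 0.0448% of all genes were higher and 0.986% lower, with a median of 0.08.

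**Figure D5:**
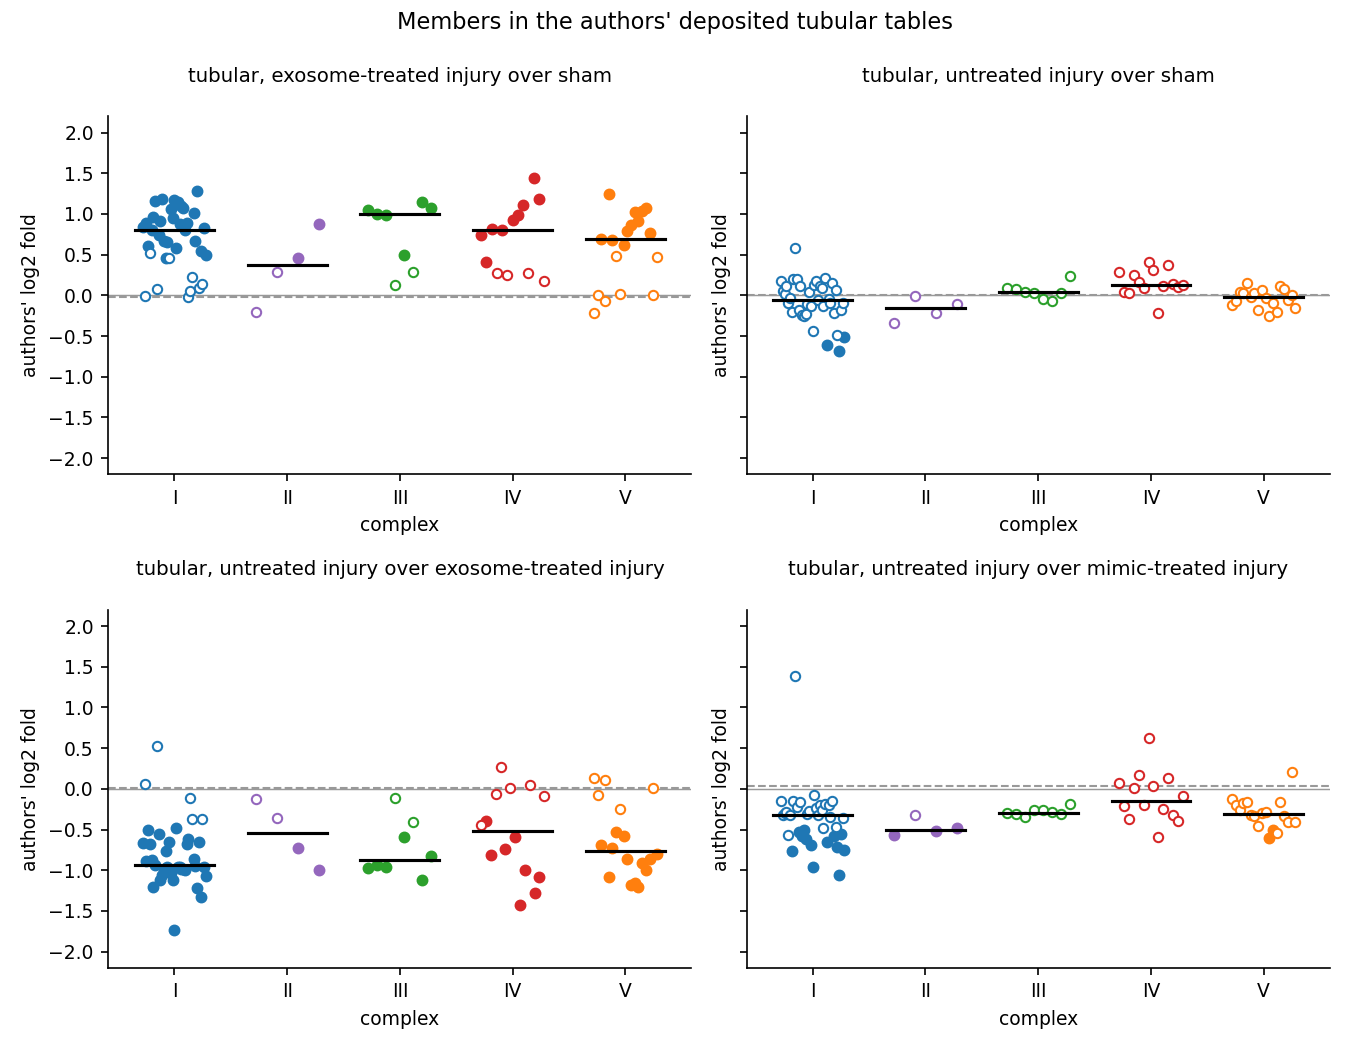
Log2 fold change of each member by complex in 4 tubular comparisons of the authors' deposited tables; filled points have an adjusted p under 0.05 there, open points do not, and black bars are medians per complex. The members lie mostly above 0 for exosome-treated over sham (median 0.75) and mostly below 0 for untreated over exosome-treated (median -0.81), and near 0 for untreated over sham.

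For the endothelial fraction the authors' deposited tables called almost none. The authors' deposited table of untreated over sham had 1 of 82 higher, the muscle isoform Cox6a2, where 3.3% of all genes were higher, and 2 lower, Ndufv3 (log2 -0.68) and Cox7a1 (-1.09), where 1.11% were lower. Cox6a2 had only 0 to 13 reads (median 2.5) in the 16 libraries with a file, so its call concerns a gene near the floor. Untreated over exosome-treated had Atp5k, subunit e of ATP synthase, lower (log2 -0.59, adjusted p = 0.0443 in the authors' deposited table), where 1.95% of all genes were lower and 1.83% higher. Untreated over mimic-treated had Cox7a1 lower (-1.42, adjusted p = 0.00737 in the authors' deposited table), where 3.78% of all genes were lower and 6.46% higher. No member was called in the authors' deposited table of exosome-treated over sham, where 3.35% of all genes were higher and 3.37% lower. None was called in the authors' deposited table of mimic-treated over sham, where 3.93% were higher and 7.63% lower. Untreated over scrambled miRNA had no member called in the authors' deposited table either, where 0.344% of all genes were higher and 0.413% lower, and there the members' median was 0.22.

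Genes around the chain were set beside the members in exosome against scrambled-miRNA tubules. Of 46 assembly factors, 6 rose and 1 fell in edgeR (median log2 0.34), where 2.72% of all genes rose and 2.41% fell. Tmem126b (0.80), Ndufaf4 (0.55) and Ndufaf6 (0.63), which build complex I, Coa6 (0.89) and Cox16 (0.71), which build complex IV, and Tmem70 (0.69), which builds ATP synthase, rose, while Pet117 fell by 1.22. None of the 13 mitochondrially encoded subunits passed, with a median of 0.88 and all positive. None of 18 regulators of mitochondrial biogenesis passed, with a median of -0.06. Ppargc1a, the coactivator PGC-1 alpha, stood at 0.02, Nrf1 at -0.21, Esrra at 0.30 and Tfam, which maintains mitochondrial DNA, at 0.40.

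Of 13 TCA cycle enzymes none passed (median 0.11), nor did any of 92 cytosolic ribosomal proteins (0.19). Of 78 mitochondrial ribosomal proteins 2 rose (median 0.27), a share near the 2.72% of all genes that rose. Cyc1, Cycs and Ndufab1, subunits or carriers of the chain outside the symbol rule, did not pass (median 0.57). In the authors' deposited table of exosome-treated tubules over sham, 6.24% of all genes were higher and 4.96% lower. There 51 of 92 cytosolic and 33 of 78 mitochondrial ribosomal protein genes were higher, along with 15 of 46 assembly factors and 0 of 13 mitochondrially encoded subunits.

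In tubular against endothelial libraries, where 29.9% of all genes were higher and 36.3% lower, the neighbouring lists differed among themselves in edgeR. Higher were 37 of 46 assembly factors (median log2 0.65), 71 of 78 mitochondrial ribosomal proteins (0.69) and 10 of 13 TCA cycle enzymes (0.69), with 0, 2 and 1 lower in that order. Cytosolic ribosomal proteins had 39 of 92 higher and 5 lower (0.32), carriers 4 of 8 higher and 0 lower (0.27), and biogenesis regulators 7 of 18 higher and 3 lower (0.21). Of the 13 mitochondrially encoded subunits 10 were lower and 0 higher (median -0.69).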

How the data were processed

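Polyadenylated RNA of kidney cells was sequenced, per the labels' protocols. Transcripts were quantified with Salmon 0.13.1 against GRCm38, per the submitters' processing notes. The deposited files of 16 libraries hold estimated counts (expected counts) and TPM per transcript, per the file headers. The 12 deposited tables hold the authors' DESeq2 results, per the submitters' processing notes: a base mean, which is a normalized signal, a log2 fold change with its SE, and p-values, per the file headers. No sham or untreated library has per-library values used here. The estimated counts were summed per gene, rounded to whole numbers and tested with edgeR 4.0.16 in R 4.3.3 (TMM scaling, filterByExpr with a minimum count of 10 and total of 15, quasi-likelihood test, Benjamini-Hochberg adjustment over all genes, threshold 0.05). Each cell type was fitted on its 8 libraries, and cell types and differences of effects on all 16. The TMM-scaled CPM values were scaled within each cell type. DESeq2 1.42.0 and other settings were alternatives. The tests were tried on simulated counts first. The members and gene lists were chosen with earlier results of these data known. Genes were named by role, by isoform set, by smallest adjusted p and by highest and lowest level. Intervals of depth are not given for single genes. The SE beside an edgeR fold is the size of the fold divided by the square root of the F statistic of its test. It thus follows edgeR's estimate of the spread between libraries, which draws on all groups in the fit and on other genes.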

Additional observations from a re-analysis of the deposited data

How the results depend on the processing

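The members' median kept its direction in every setting tried except in 2 comparisons: mimic against scrambled-miRNA tubules, where it ran between -0.11 and 0.22 as single libraries were left out, and the difference of exosome effects, where it was -0.15 with the length offset. Counts of members called moved more, and they are given here without the share over all genes under the same setting. For exosomes against scrambled-miRNA tubules, DESeq2 gave 45, the 2 groups alone 18, the length offset 7 (median 0.31), the replicate block 8 and single libraries left out 0 to 37. For mimic against exosome tubules, DESeq2 gave 31, no filter 13, the 2 groups alone 22, single libraries left out 0 to 3, and the median ran from -0.63 to -0.35 and to -0.18 with the length offset. For mimic against scrambled-miRNA tubules, DESeq2 and no filter each gave 1. In the endothelial fraction, exosomes gave 17 with DESeq2 and 11 with no filter; the mimic gave 43 with DESeq2, 33 with no filter, 47 with the 2 groups alone, 12 with the replicate block and 0 to 44 with single libraries left out. The difference of mimic effects gave 12 with DESeq2, 1 with no filter and 0 to 4 with single libraries left out. Tubular against endothelial libraries gave 36 with the length offset (median 0.17). Library numbers recur in both cell types; a replicate block by library number gave 53 higher and 2 lower there, against 67 and 2, and same-numbered libraries correlated at -0.10 to 0.09. Where a count moved, the cause was not tested. Samples with the same number in their titles correlated at -0.07 to 0.24 in their deviations. With groups of 2 or 3 libraries this cannot show whether such samples share more than a number. Leaving out the mitochondrially encoded genes, chosen after seeing the data, gave 31 for exosome tubules. Of single members, 310 values kept their side of the threshold, 16 passed it newly and 20 lost it, with 0 reversed. Groups of 2 or 3 libraries limit every count, and few reads limit the low isoforms.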

Other observations

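Several genes with symbols close to a member, outside the protein-coding set, drew reads in the same groups, in CPM without TMM scaling. Ndufb4c, annotated as a processed pseudogene of the complex I gene Ndufb4, ran at 361 to 393 in exosome tubules and 171 to 202 in mimic tubules, against 176 to 256 in scrambled-miRNA tubules. It held 43381 reads over the 16 libraries, and Ndufb4 itself 11736. Cox6c2, a processed pseudogene of Cox6c, ran at 94.1 to 106 in exosome tubules and 59.4 to 62.8 in mimic tubules, against 59.9 to 63.1 in scrambled-miRNA tubules. How the quantification splits reads between such near copies was not tested, so the values of Ndufb4 and Cox6c are uncertain.

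A second Ensembl gene, ENSMUSG00000116933, carries the symbol Atp5o. Its level was 0.959 RPKM in tubules and 1.40 RPKM in the endothelial fraction, against 413 and 356 RPKM for the main Atp5o gene in the same order, and it passed no test.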
